A study of Homo sapiens with 15 samples.

Results

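The 10 genes described here encode Polycomb repressive complex 2 (PRC2) and its accessory subunits: EZH1, EZH2, EED, SUZ12, RBBP4, RBBP7, JARID2, PHF19, MTF2 and PHF1. They were chosen by name, as subunits of this complex, with earlier results of these data known, and were found by Ensembl identifier in a table of 57272 genes. All 10 passed the filter on low counts, as did 15799 genes in all. PRC2 methylates lysine 27 of histone H3, a mark that keeps genes silent. Its core holds a methyltransferase, EZH2 or EZH1, with EED, which binds the methylated histone and stimulates the enzyme, SUZ12, which scaffolds the complex, and a histone chaperone, RBBP4 or RBBP7. EZH2 is known as the enzyme of dividing cells and EZH1 as that of resting cells, and in fibroblasts the loss of the mark at the INK4 locus is a known step on the way to senescence.

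RNA was sequenced from MRC-5 cells, human primary fibroblasts of fetal lung origin with a limited lifespan in culture, in 5 conditions of 3 libraries each. Young cells at population doubling (PD) 30 carried the empty lentiviral vector pWPIR-GFP with a control siRNA, the vector expressing TRF2 with a control siRNA, or the empty vector with an siRNA against LMNB1 (siLMNB1), the gene of the nuclear envelope protein Lamin B1. Senescent cells had been infected before senescence with the empty vector or with the TRF2 vector, stopped dividing at PD 71 and PD 75, respectively, and received the control siRNA. TRF2, encoded by TERF2, is a protein of the telomere-protecting shelterin complex. All 5 conditions thus shared the virus, the siRNA transfection and 1 cell strain, and TRF2 came from a transgene on top of the cell's own gene. The study describes the libraries of a condition as triplicates and, for young against senescent cells, as biological replicates, but the sources used here do not say whether each came from a separate culture or infection, so p-values measure the spread between these libraries, part of which may be technical.

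Total counts ranged from 26725885 to 43116046 per library. LMNB1 lay between 58.6 and 61.0 CPM (counts scaled to a common library size by TMM factors) in the young control libraries and between 2.36 and 2.91 CPM with siLMNB1, and TERF2 rose from between 21.9 and 25.5 CPM to between 128 and 307 CPM with the TRF2 vector in young cells. The 10 fibroblast markers were all expressed, and 6 of 10 markers of other cell types did not exceed 12 counts in any library. The other 4 were EPCAM, KRT8, MYH11 and VWF. The summed level of those 10 markers, mostly KRT8, was 9.34 to 12.3 CPM in the young and 17.8 to 25.9 CPM in the senescent libraries, and its part in the results was not tested. The labels mark the 6 senescent libraries, and none of the 9 young ones, as reanalysed from an earlier deposit, so deposit and senescence cannot be told apart. Relative to the young control libraries, log2 counts rose with gene GC content by 0.447 to 0.491 per 10 percentage points in 5 senescent libraries and by 0.80 in replicate 3 of the senescent empty-vector cells, against −0.01 to 0.13 in the young libraries. In that same library, the description refers to an earlier record that is not numbered in sequence with those of the other senescent libraries. A second fit therefore carried offsets for GC and length, and its values are given beside many of the senescence results below.

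Promoter windows are shown for 3 members that were lower in senescent cells and hold a motif of E2F factors, and for the 2 members that were higher. RefSeq windows on GRCh38.p14 reach from 250 bases before to 50 bases after a gene's start, and the 10 genes have 15 of them. Both strands were searched for the E2F motifs TTTCCCGC and TTTGGCGC, since E2F factors are known activators of EZH2 and of other genes of dividing cells. Capitals mark an E2F motif on either strand. EZH2, SUZ12 and MTF2 hold one, and EZH1 and PHF1 hold none.
EZH2, chr7:148884242-148884541, minus strand: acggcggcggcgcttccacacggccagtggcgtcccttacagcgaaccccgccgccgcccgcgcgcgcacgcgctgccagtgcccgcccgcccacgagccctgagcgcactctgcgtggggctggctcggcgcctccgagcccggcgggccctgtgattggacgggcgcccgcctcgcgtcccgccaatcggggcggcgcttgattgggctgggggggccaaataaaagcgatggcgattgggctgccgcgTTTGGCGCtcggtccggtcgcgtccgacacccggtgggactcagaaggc
SUZ12, chr17:31936757-31937056, plus strand: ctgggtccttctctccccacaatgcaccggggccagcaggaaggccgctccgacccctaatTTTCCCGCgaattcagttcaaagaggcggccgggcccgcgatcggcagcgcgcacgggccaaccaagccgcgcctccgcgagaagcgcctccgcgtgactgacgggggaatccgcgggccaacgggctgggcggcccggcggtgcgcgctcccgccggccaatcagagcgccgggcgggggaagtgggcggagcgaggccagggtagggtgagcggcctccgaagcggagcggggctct
MTF2, chr1:93079033-93079332, plus strand: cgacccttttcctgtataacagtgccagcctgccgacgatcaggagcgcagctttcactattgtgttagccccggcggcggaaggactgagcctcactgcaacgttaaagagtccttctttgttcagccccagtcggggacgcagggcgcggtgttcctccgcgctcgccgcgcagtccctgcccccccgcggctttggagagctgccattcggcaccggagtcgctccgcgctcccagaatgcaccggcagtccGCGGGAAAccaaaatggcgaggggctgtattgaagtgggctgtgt
EZH1, chr17:42744991-42745290, minus strand: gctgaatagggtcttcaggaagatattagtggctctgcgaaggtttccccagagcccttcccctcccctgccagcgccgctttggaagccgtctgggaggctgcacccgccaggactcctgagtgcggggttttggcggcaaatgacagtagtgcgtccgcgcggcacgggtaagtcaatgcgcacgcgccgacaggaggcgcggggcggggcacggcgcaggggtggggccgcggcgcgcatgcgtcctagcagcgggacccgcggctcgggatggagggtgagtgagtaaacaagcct
PHF1, chr6:33410764-33411063, plus strand: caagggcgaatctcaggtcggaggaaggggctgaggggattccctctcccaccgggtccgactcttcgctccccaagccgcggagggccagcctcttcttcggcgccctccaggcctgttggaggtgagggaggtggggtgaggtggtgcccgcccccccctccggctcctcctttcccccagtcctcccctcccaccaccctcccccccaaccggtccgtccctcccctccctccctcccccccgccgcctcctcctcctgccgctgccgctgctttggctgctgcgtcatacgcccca

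The match in EZH2 starts at position 2 of the transcript, that in SUZ12 at position -189 from the start site, and that in MTF2, on the opposite strand, at position 6. A further match, on the opposite strand at position -152, lies in the upstream window of PHF19, and EED, RBBP4, RBBP7 and JARID2 hold none. Altogether 4 of the 10 genes hold either motif in a window, against 2.75% of 27305 genes in the RefSeq table. The CHR motif of genes expressed in mitosis (TTTGAA) was found in 1 gene, SUZ12, against 18.2% of all genes. CCAAT boxes, bound by NF-Y, were found in 7 of the 10 genes, against 39.7% of all genes, and the EZH2 window above holds 4 of them. The windows of RBBP4 overlap, so the same CCAAT box appears in both, at positions -54 and -202. No other match overlapped another. These matches are letters in a window, and binding was not measured here.

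The enzymes moved in opposite directions in senescent cells with the empty vector. EZH2 (chromosome 7, 148807257 to 148884321, minus strand, ENSG00000106462.11) had 22.8, 22.6 and 19.1 CPM in the young and 3.20, 4.22 and 5.09 CPM in the senescent libraries. The senescent values all lay far below the young ones, at 86 to 157 reads per library. EZH2 was 5.13-fold lower, with a log2 fold change of −2.36 ± 0.147 (SE, n = 3 and 3, adjusted p = 1.08e-09, quasi-likelihood test of edgeR, Benjamini-Hochberg adjustment over all tested genes, as for every adjusted p below). The offsets reduced the EZH2 log2 fold change to −1.89, which still passed (edgeR adjusted p = 2.21e-07). EZH1 (chromosome 17, 42700275 to 42745049, minus strand, ENSG00000108799.13) had 12.2, 12.9 and 11.3 CPM in the young and 21.5, 23.3 and 28.9 CPM in the senescent libraries. These groups did not overlap either, and EZH1 was 2.02-fold higher (log2 fold change 1.02 ± 0.124, edgeR adjusted p = 2.78e-06).

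In cells with the TRF2 vector, the same pair was compared between other libraries. EZH2 had 16.2, 17.6 and 16.3 CPM in the young and 2.20, 2.20 and 2.82 CPM in the senescent libraries, 6.92-fold lower (log2 −2.79 ± 0.153, edgeR adjusted p = 2.1e-10). Its log2 fold change with the offsets was −2.49 (edgeR adjusted p = 1.11e-08). EZH1 had 12.8, 16.8 and 15.7 CPM in the young and 19.6, 19.2 and 20.5 CPM in the senescent libraries, 1.31-fold higher (log2 0.39 ± 0.122, edgeR adjusted p = 0.012). The EZH1 groups stood close to each other, with 16.8 CPM as the highest young and 19.2 CPM as the lowest senescent value. Without the first young TRF2 library, the lowest of its group, the EZH1 difference was 0.27 on the log2 scale and no longer passed (edgeR adjusted p = 0.0831). Whether senescence changed EZH1 less with TRF2 was tested as an interaction: it was −0.63 ± 0.174 on the log2 scale (edgeR adjusted p = 0.101), which did not pass. Per the study, the TRF2 vector was carried for days in young cells and over many doublings in senescent cells. Time with the vector and senescence therefore cannot be told apart in the TRF2 comparison or the interaction. The senescent empty-vector cells had also been infected before senescence, so the same limit holds for the empty-vector comparison.

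**Figure D1:**
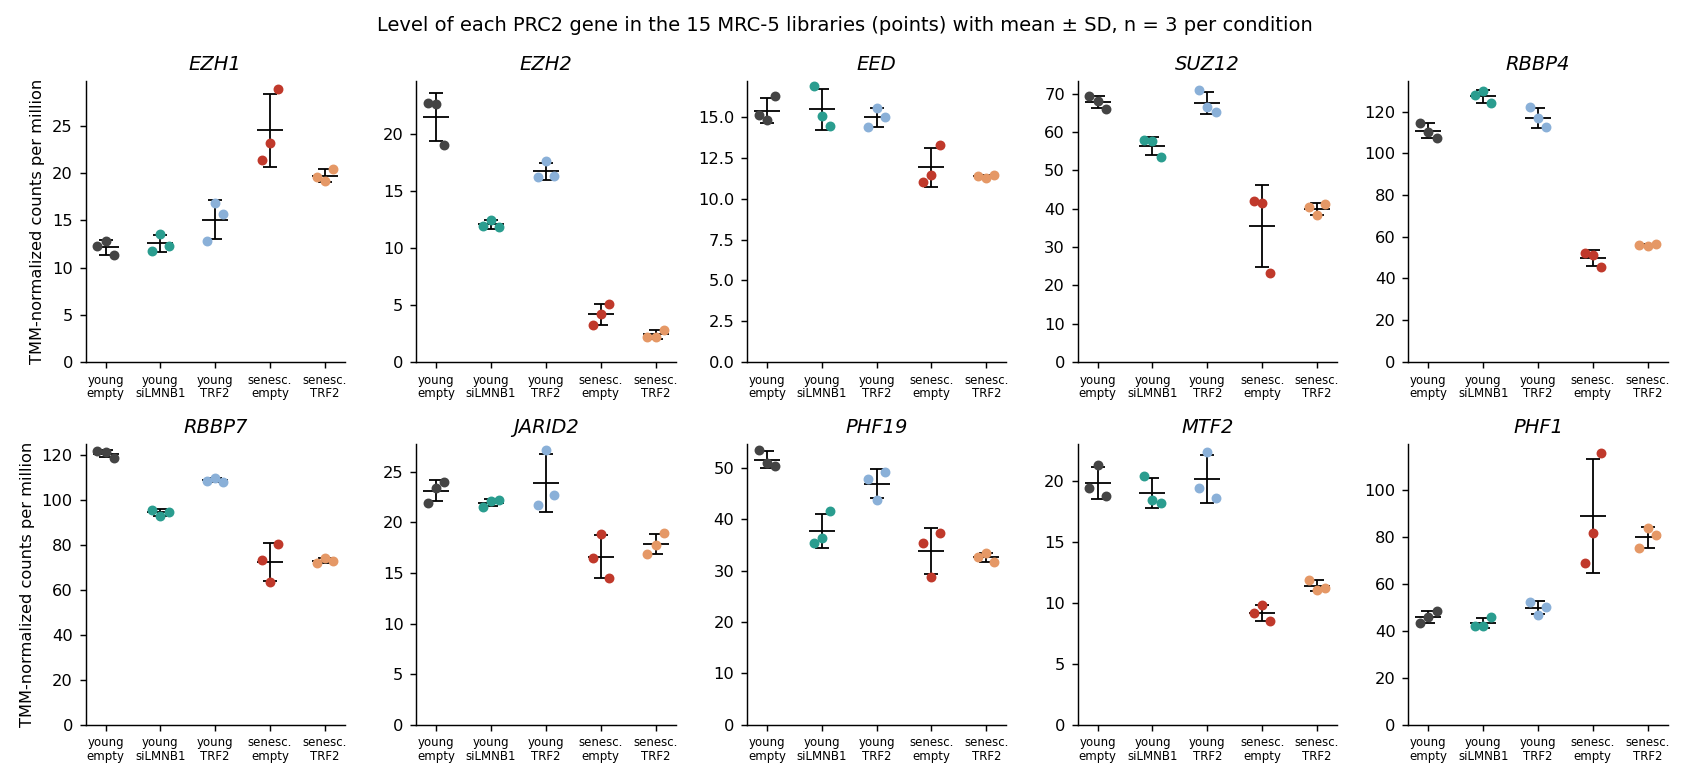
TMM-normalized CPM of each PRC2 gene (y axes, from 0) in each of the 15 libraries (points), by condition (x axes), with the mean ± SD of 3 libraries as bars. EZH2 falls from 19.1 to 22.8 CPM in young control cells to 3.20 to 5.09 CPM in senescent cells, while EZH1 and PHF1 lie higher in the senescent libraries.

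Divided by the length of the MANE Select transcript (2654 bases for EZH2, 4633 for EZH1), the level of EZH2 exceeded that of EZH1 in every young library. The ratio of EZH2 to EZH1 reads per kilobase was 2.94 to 3.25 in young control cells, 1.82 to 2.21 in young cells with TRF2, 1.60 to 1.76 with siLMNB1, 0.260 to 0.317 in senescent cells with the empty vector and 0.196 to 0.240 in senescent cells with TRF2. No 2 conditions overlapped in this ratio. EZH2 made up 75.5% ± 0.923 (SD, n = 3) of the summed EZH1 and EZH2 level in young control cells, and its share in the senescent empty-vector cells was 22.7% ± 1.83 (SD, n = 3). The summed level itself was 10.7 ± 0.944 RPKM (reads per kilobase of transcript, scaled like CPM) in the first and 6.87 ± 1.18 RPKM in the second (SD, n = 3 each).

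Between senescent and young cells, compared within each vector, the log2 ratio differed by −3.30 (exact permutation test, two-sided, 6 against 6 libraries with labels permuted within vector, p = 0.005, the smallest p of its 400 arrangements, and 0.02 after Benjamini-Hochberg adjustment over 4 tests). With the offsets the difference was −2.91. The other 3 tests compared 3 with 3 libraries, for which an exact permutation test cannot go below p = 0.1. Each gave that value (exact permutation test, two-sided, adjusted p = 0.1), with log2 ratios lower by 0.88 with siLMNB1, 0.66 with TRF2 in young cells and 0.48 with TRF2 in senescent cells. The level of the ratio depends on the length chosen: with all annotated exons as length it was 1.09 to 1.21 in young control cells, 0.676 to 0.822 in young cells with TRF2 and 0.595 to 0.654 with siLMNB1, so that EZH2 exceeds EZH1 in the latter 2 conditions only by the first measure. This choice of length was added after the data were seen, and it leaves differences between conditions as they are.

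**Figure D2:**
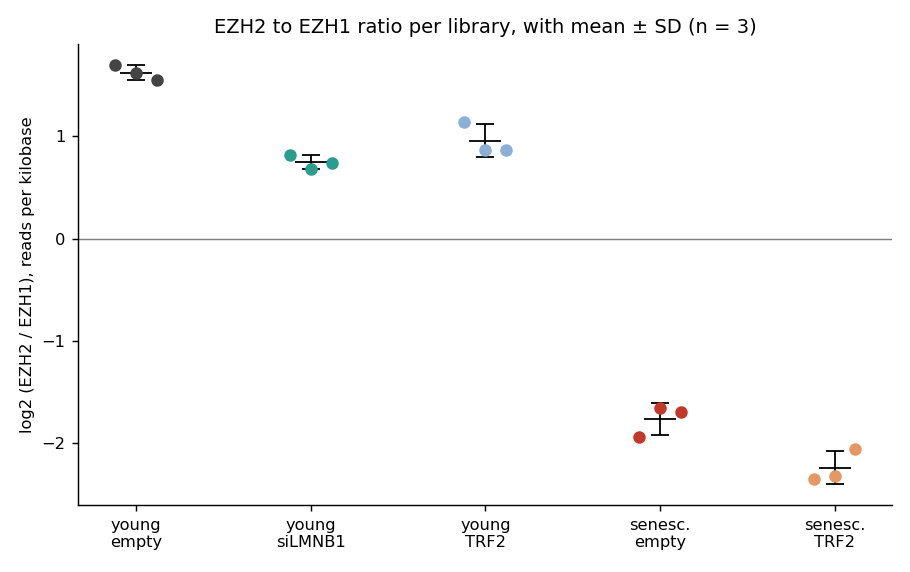
Log2 ratio of EZH2 to EZH1, each in reads per kilobase of the MANE Select transcript (y axis), in each library (points) of the 5 conditions (x axis), with mean ± SD of 3 libraries as bars. Young libraries lie above 0 and senescent libraries below, with −1.94 to −1.66 in the empty vector and −2.35 to −2.06 in the TRF2 group.

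Of the remaining core genes, SUZ12, RBBP4 and RBBP7 were lower in senescent cells, by less than EZH2. SUZ12 (chromosome 17, 31937007 to 32001038, plus strand) had 69.3, 68.0 and 66.1 CPM in the young and 42.0, 41.5 and 23.2 CPM in the senescent libraries with the empty vector (log2 −0.93 ± 0.154, edgeR adjusted p = 6.38e-05). The lowest senescent value is that of the third replicate, without which the log2 fold change was −0.72. With TRF2, SUZ12 had 65.2 to 70.9 CPM in the young and 38.3 to 41.1 CPM in the senescent libraries (log2 −0.76 ± 0.153, edgeR adjusted p = 0.000454). SUZ12 is poor in GC (38.4% of its exons), and with the offsets its log2 fold changes were −0.41 and −0.32, which still passed. Reads of SUZ12 may be split with its pseudogene copy SUZ12P1, which had 1.44 to 3.92 CPM per library.

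EED (chromosome 11, 86201212 to 86278813, plus strand) had 15.1, 14.8 and 16.3 CPM in the young and 11.0, 11.5 and 13.3 CPM in the senescent libraries with the empty vector (log2 −0.37 ± 0.0994, edgeR adjusted p = 0.00422). It is the member with the lowest GC content, 36.4%. With the offsets its log2 fold changes were 0.30 in empty-vector and 0.09 in TRF2 cells (edgeR adjusted p = 0.0932 and 0.634), so neither the call nor the direction held, and no direction is given for EED.

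RBBP4 and RBBP7, which bind histone H4 and also serve in other chromatin complexes, were both lower. RBBP4 (chromosome 1, 32651142 to 32686211, plus strand) had 115, 110 and 107 CPM in the young and 52.3, 51.5 and 45.6 CPM in the senescent libraries with the empty vector (log2 −1.15 ± 0.0759, edgeR adjusted p = 2.18e-09). With TRF2 its level went from between 113 and 122 to between 55.3 and 56.6 CPM (log2 −1.07). RBBP7 (chromosome X, 16839283 to 16870362, minus strand) had 122, 121 and 119 CPM in the young and 73.0, 63.3 and 80.3 CPM in the senescent libraries with the empty vector (log2 −0.74 ± 0.0813, edgeR adjusted p = 8.62e-07), and its log2 fold change with TRF2 was −0.58. In RBBP4, 22.8% of the exon bases overlap a gene on the other strand, and the strand used for counting is not given in the sources used here. Genes that overlap others over most of their exons held 0.909% to 0.989% of the counts in young and 0.524% to 0.734% in senescent libraries, and the part of this in the RBBP4 difference was not tested.

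Accessory subunits decide where PRC2 is recruited. PHF1, MTF2 and PHF19, the Polycomb-like proteins, recruit one form of the complex to CpG islands, and JARID2 with AEBP2 belongs to the other form. PHF1 (chromosome 6, 33410399 to 33416453, plus strand) had 43.2, 45.8 and 48.5 CPM in the young and 69.0, 81.7 and 116 CPM in the senescent libraries with the empty vector, 1.94-fold higher (log2 0.96 ± 0.139, edgeR adjusted p = 1.72e-05). The highest value is that of the third replicate, and the log2 fold change was 0.70 without it. With TRF2, PHF1 had 46.8 to 52.3 CPM in the young and 75.2 to 83.8 CPM in the senescent libraries (log2 0.68 ± 0.138). PHF1 is the member richest in GC (59.3%), and the offsets reduced its log2 fold changes to 0.31 and 0.29, which still passed (edgeR adjusted p = 0.00225 and 0.00377).

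MTF2 (chromosome 1, 93079235 to 93139079, plus strand) had 19.5, 21.4 and 18.8 CPM in the young and 9.18, 9.85 and 8.49 CPM in the senescent libraries with the empty vector, 2.17-fold lower (log2 −1.12 ± 0.104, edgeR adjusted p = 1.21e-07). PHF19 (chromosome 9, 120855651 to 120894896, minus strand) had 53.5, 51.0 and 50.3 CPM in the young and 35.4, 28.7 and 37.2 CPM in the senescent libraries (log2 −0.61 ± 0.1, edgeR adjusted p = 5.78e-05). The offsets moved them in opposite ways, with MTF2 (37% GC) at −0.47 and PHF19 (57.3% GC) at −1.16 in the empty vector. With TRF2 the log2 fold changes were −0.82 for MTF2 and −0.53 for PHF19, or −0.31 and −0.91 with the offsets. Of the summed RPKM of these 3 Polycomb-like genes, PHF1 made up 53.9% ± 2.12 in young control cells and 78.5% ± 4.27 in senescent empty-vector cells (SD, n = 3 each).

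JARID2 (chromosome 6, 15246069 to 15522042, plus strand) had 22.0, 23.5 and 24.0 CPM in the young and 16.5, 18.9 and 14.6 CPM in the senescent libraries with the empty vector (log2 −0.48 ± 0.108, edgeR adjusted p = 0.0011) and a log2 fold change of −0.42 with TRF2. The offsets left both values within 1.5 times. AEBP2, its partner, was lower with the empty vector (log2 −0.49 ± 0.13, edgeR adjusted p = 0.00281) and was −0.03, not called, with the offsets.

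Counted together, 2 members were higher and 8 lower in senescent cells with the empty vector, EED among the latter, and the same held with TRF2. The background is wide: of all tested genes, 32.7% were higher and 31.9% lower with the empty vector, and 28.2% higher and 30.1% lower with TRF2. The median log2 fold change of the 10 members was −0.67 with the empty vector and −0.55 with TRF2, beside 0.02 and −0.02 over all tested genes. With the offsets, the members numbered 2 higher and 7 lower in each comparison. Of all tested genes, 28.6% were then higher and 28.8% lower with the empty vector, and 29.8% and 25.7% with TRF2. When a log2 fold change of at least 1 was also asked for, EZH1 was higher and EZH2, RBBP4 and MTF2 were lower with the empty vector (against 16.7% and 11.8% of all genes), and EZH2 and RBBP4 were lower with TRF2 (11.9% of all genes were higher and 12.1% lower). With the offsets, 2 members met this threshold with the empty vector, EZH2 and PHF19, both lower (11.4% of all genes were higher and 9.68% lower), and EZH1 (0.98), RBBP4 (−0.90) and MTF2 (−0.47) did not. With TRF2 and the offsets, EZH2 alone met it (9.89% of all genes were higher and 10.5% lower), with RBBP4 at −0.89. Without the third senescent replicate all 10 members still passed with the empty vector at an adjusted p under 0.05, with EZH2 at −2.55 and EZH1 at 0.86, the latter short of the threshold of 1. In bulk RNA, fewer cells that express a gene and less of its RNA per cell cannot be told apart.

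**Figure D3:**
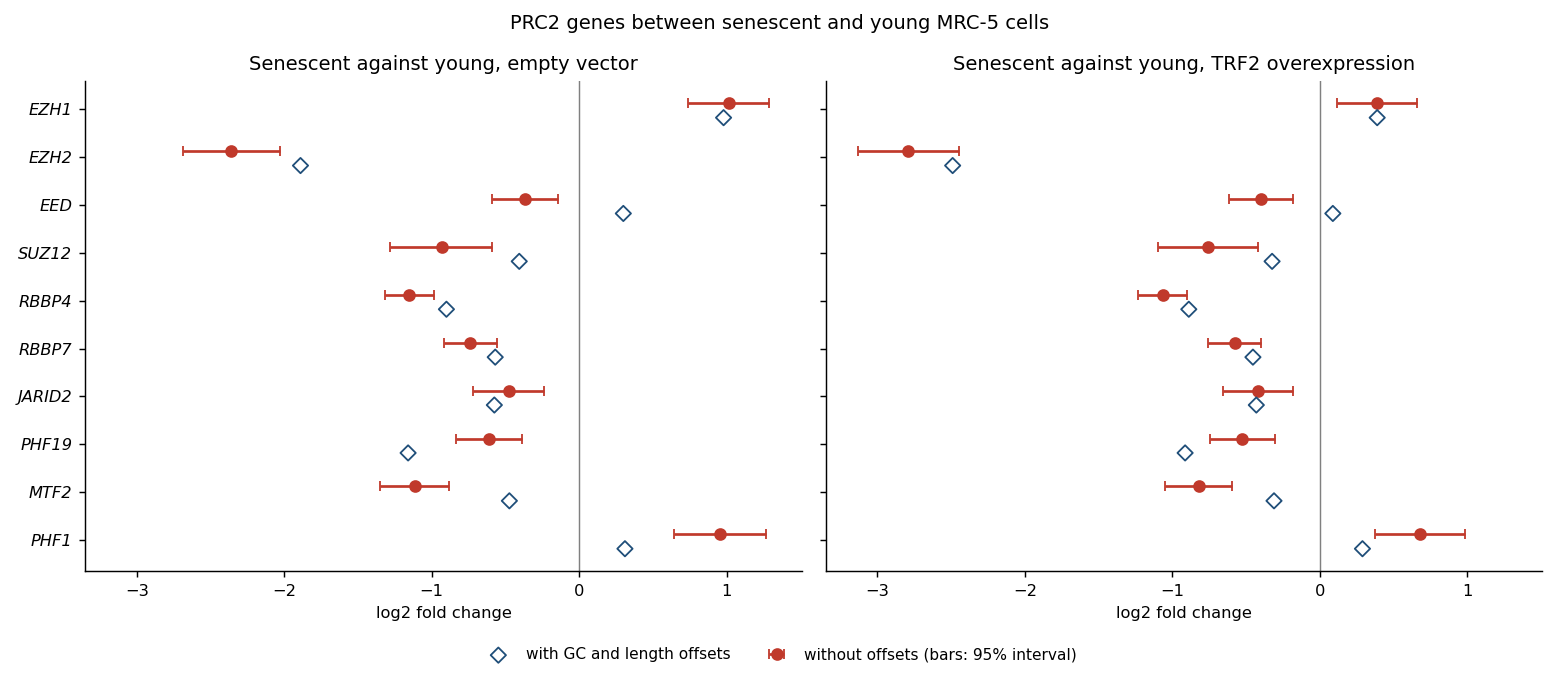
Log2 fold change of each PRC2 gene between senescent and young cells (x axis) with the empty vector (left) and with TRF2 (right). Filled circles are edgeR's estimates with their 95% interval and open diamonds the estimates with GC and length offsets, which place EED at 0.30 and 0.09 and leave EZH2 the most negative in both.

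By level per length, the order of the members changed as well. In young control cells, RBBP7 (52.7 RPKM) and PHF1 (20.3 RPKM) stood highest, SUZ12, RBBP4 and PHF19 lay between 12.4 and 15.1 RPKM, EZH2 and EED had 8.09 and 7.38 RPKM, and EZH1 was the lowest at 2.62 RPKM. In senescent cells with the empty vector, PHF1 (39.3 RPKM) and RBBP7 (31.7 RPKM) were highest, EZH1 had 5.30 RPKM and EZH2 was the lowest at 1.57 RPKM. These means had SDs of 0.682 and 1.16 RPKM for RBBP7 and PHF1 in young control cells and of 10.8 RPKM for PHF1 and 3.72 RPKM for RBBP7 in senescent cells, where both lay within their spread of each other. The levels carry no offsets, with which the log2 fold changes were 0.31 for PHF1 and −0.57 for RBBP7. An order between genes also depends on the length chosen.

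In young cells, siLMNB1 was compared with the control siRNA, both with the empty vector. EZH2 had 11.9, 12.5 and 11.8 CPM with siLMNB1, below the 19.1 to 22.8 CPM of the control siRNA (1.78-fold lower, log2 −0.83 ± 0.134, edgeR adjusted p = 0.000192). RBBP7 had 95.6, 92.7 and 94.7 CPM with siLMNB1 (log2 −0.35 ± 0.0807, edgeR adjusted p = 0.00334), and PHF19 had 35.4, 36.3 and 41.5 CPM (log2 −0.45 ± 0.0993, edgeR adjusted p = 0.00252). All 3 lay below every control library. RBBP4 had 128, 130 and 124 CPM, above its controls (log2 0.20 ± 0.0743, edgeR adjusted p = 0.0498), and missed the threshold under 9 of 12 alternatives. EZH1 had 11.8, 13.6 and 12.3 CPM, overlapping its controls (log2 0.05, 95% interval −0.23 to 0.33, edgeR adjusted p = 0.797).

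SUZ12 had 57.9, 57.6 and 53.5 CPM with siLMNB1, all below its controls, without passing (log2 −0.27, edgeR adjusted p = 0.193). It passed with the offsets (edgeR adjusted p = 0.0314) and in a fit of these 6 libraries alone (edgeR adjusted p = 0.000148). EED, JARID2, MTF2 and PHF1 overlapped their controls, with log2 fold changes between −0.08 and 0.01. In total 1 member was higher and 3 were lower, against 16.4% and 16.1% of all tested genes. With a log2 fold change of at least 0.58, only EZH2 remained (10.3% of all genes were higher and 8.06% lower).

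TRF2 in young cells left 0 members called by edgeR, where 0.152% of all genes were higher and 0.0253% lower. EZH2 had 16.2 to 17.6 CPM, below every control library (log2 −0.36, 95% interval −0.66 to −0.07, unadjusted p = 0.0148 and adjusted p = 0.356 by edgeR), and EZH1 had 12.8 to 16.8 CPM (log2 0.31, unadjusted p = 0.0235 and adjusted p = 0.41 by edgeR). These were the 2 members with an unadjusted p under 0.05, and DESeq2 also called none. EZH2 passed when only these 6 libraries were fitted (edgeR adjusted p = 0.0458).

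Among senescent cells, which differ in PD as well as in vector, EZH2 was lower with TRF2, with 2.20 to 2.82 against 3.20 to 5.09 CPM (log2 −0.79 ± 0.162, edgeR adjusted p = 0.00598). It was the only member called, against 4.87% of all genes higher and 6.41% lower. With these 6 libraries alone the log2 fold change was −0.78 and did not pass (edgeR adjusted p = 0.151). EZH1 (log2 −0.31, 95% interval −0.58 to −0.04, edgeR adjusted p = 0.106) lay below and MTF2 (log2 0.31, 95% interval 0.08 to 0.55, edgeR adjusted p = 0.0642) above without overlap, and neither passed. The interaction of senescence with TRF2 was called for 0 of 10 members by edgeR (1 at an unadjusted p under 0.05, EZH1) and for 1 by DESeq2, EZH1, and for 1.13% of all genes by edgeR. DESeq2 called it higher for 1.1% and lower for 2.78% of the genes it tested.

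Genes of dividing cells moved beside EZH2. Of 16 such genes, among them cyclins, replication licensing and mitotic genes, all were lower in both senescence comparisons, with medians of −2.66 and −3.39, and 15 were lower with siLMNB1 (median −0.91). In the same order EZH2 was at −2.36, −2.79 and −0.83. With TRF2 in young cells 0 of the 16 were called and the median was −0.25, against −0.36 for EZH2, and in senescent cells 15 were lower with a median of −0.77, against −0.79 for EZH2. Their summed level was 1157 to 1230 CPM in young control cells, 985 to 1039 CPM in young cells with TRF2, 640 to 664 CPM with siLMNB1, 259 to 269 CPM in senescent cells with the empty vector and 170 to 195 CPM in those with TRF2. This is also the order of EZH2 over the 5 conditions. Several comparisons share their control libraries, and the part of cell division in the EZH2 differences was not tested.

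**Figure D4:**
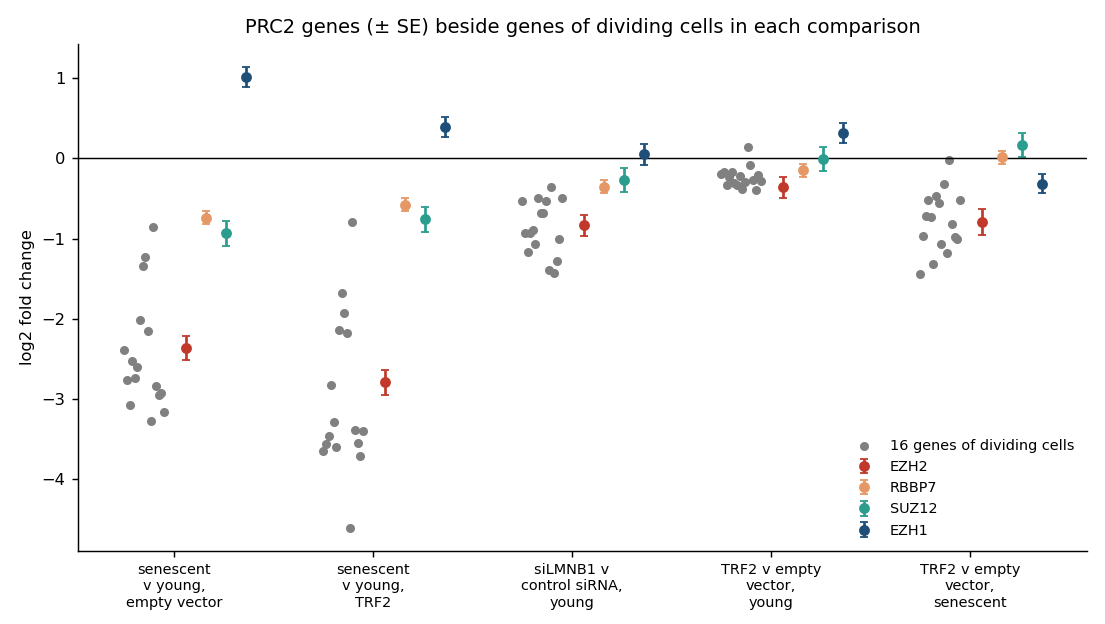
Log2 fold change (y axis) in 5 comparisons (x axis) of 16 genes of dividing cells (grey points) and of EZH2, RBBP7, SUZ12 and EZH1 (coloured points, ± SE). EZH2 lies within the range of the grey points in each comparison, while EZH1 lies above them except in senescent cells with TRF2 against the empty vector, where it is within their range.

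The protein-coding genes whose profile over the 15 libraries was nearest to that of EZH2 were RFC3, a subunit of the loader of the PCNA clamp, MAD2L1, of the spindle checkpoint, and ZWINT, of the kinetochore. Their root mean square difference from EZH2, in centred log2 CPM, was 0.142, 0.164 and 0.166, against a median of 1.24 over all genes. Among the nearest to EZH1 were BCL2L2 and CLK3, at 0.0958 and 0.0987, against a median of 0.57. Among the members, RBBP7 and PHF19 were the closest pair (0.0984), and EZH1 had PHF1 as its nearest (0.175).

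Of the other PRC2 accessory genes, EPOP was higher in senescent cells with the empty vector (log2 1.75 ± 0.36, edgeR adjusted p = 0.000459) and with TRF2 (log2 2.22). With the offsets it was at 0.89 and 1.63, the first passing narrowly (edgeR adjusted p = 0.0452). EPOP lay near the floor, with a mean of 0.59 CPM and at most 28 reads in young control cells. Its mean in senescent empty-vector cells was 2.01 CPM. LCOR was lower with the empty vector (log2 −0.95 ± 0.22) and did not pass with TRF2 (log2 −0.51, edgeR adjusted p = 0.0507). Its values under the offsets were −0.61 and −0.33, both of which passed. In the third senescent empty-vector replicate LCOR had 15.4 CPM, against 34.2 and 38.1 CPM in the others. The empty-vector call held without any 1 of the 6 libraries compared. EZHIP did not pass the filter on low counts.

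PRC1 is the companion complex that ubiquitylates histone H2A and reads the PRC2 mark through its CBX subunits. Of 24 genes, 7 were higher, 8 lower and 9 not called in senescent cells with the empty vector (median log2 −0.11), and 9 were higher and 8 lower with TRF2 (median −0.05). Of all tested genes, 32.7% were higher and 31.9% lower with the empty vector, and 28.2% and 30.1% with TRF2. Among the PRC1 genes that were higher with the empty vector were the chromodomain genes CBX7 (log2 2.06 ± 0.18), CBX6 (0.98 ± 0.079) and CBX8 (0.88 ± 0.17). Those with the largest decreases were SCML2 (−1.49 ± 0.27), PCGF5 (−1.21 ± 0.16), the E3 ligase gene RNF2 (−0.99 ± 0.13) and PCGF2 (−0.70 ± 0.11). With the offsets 4 were higher and 13 lower with the empty vector, where 28.6% of all genes were higher and 28.8% lower. CBX7 then stood at 1.42 and CBX6 at 0.37, and CBX8 no longer passed (0.32, edgeR adjusted p = 0.0738). CBX2, another chromodomain gene, was not called without the offsets and was lower with them (−0.95, edgeR adjusted p = 0.00025). SCML2, PCGF5, RNF2 and PCGF2 were then at −0.96, −0.64, −0.36 and −1.21. With siLMNB1, 3 were higher and 7 lower, among them RNF2 (−1.24 ± 0.13, edgeR adjusted p = 3.34e-06) and SCML2 (−1.68 ± 0.27). There 16.4% of all tested genes were higher and 16.1% lower.

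The demethylases that remove the PRC2 mark went apart. KDM6B was higher with the empty vector (log2 1.27 ± 0.13, edgeR adjusted p = 2.97e-07), with TRF2 (0.84) and with siLMNB1 (0.73), and its values with the offsets were 0.45, 0.20 and 0.60, of which the second did not pass. KDM6A was lower in both senescence comparisons (−0.58 and −0.55). Its empty-vector call was lost with the offsets (−0.06, edgeR adjusted p = 0.622), the TRF2 call was kept (−0.25), and without the third senescent empty-vector replicate, which had 8.52 CPM against 14.5 and 15.2 CPM in the others, the empty-vector difference was −0.37 and still passed. Of the 3 PR-DUB genes, whose enzyme removes the PRC1 mark, BAP1 was higher (log2 0.44 ± 0.1, −0.12 with the offsets), ASXL2 lower (−0.75 ± 0.26, −0.48 with the offsets) and ASXL1 not called with the empty vector. With the offsets BAP1 did not pass and ASXL1 was lower (−0.30, edgeR adjusted p = 0.00534), and without the third senescent replicate BAP1 was at 0.28 and ASXL2 at −0.40, both of which passed.

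CDKN2A and CDKN2B, cell cycle inhibitor genes of the INK4 locus and known targets of Polycomb, were higher in both senescence comparisons. CDKN2A had 18.1 to 20.6 CPM in young control cells, 24.7 to 29.3 CPM with siLMNB1, 34.3 to 61.4 CPM in senescent cells with the empty vector and 57.3 to 64.8 CPM in those with TRF2. It differed by 1.20 ± 0.16 on the log2 scale in empty-vector cells (edgeR adjusted p = 9.69e-06), 1.77 ± 0.17 with TRF2 and 0.45 ± 0.16 with siLMNB1 (edgeR adjusted p = 0.0442). CDKN2B was at 1.19 ± 0.1, 0.76 ± 0.1 and 0.30 ± 0.1 in the same order, all called. With the offsets CDKN2A was at 0.77, 1.56 and 0.37, and with siLMNB1 only 1 of these 2 genes passed when median-ratio factors replaced TMM. The siLMNB1 calls were also lost without any 1 of the 6 libraries compared for CDKN2A, and without 5 of the 6 for CDKN2B. Transcripts of CDKN2A that encode p16 and p14 share exons and cannot be told apart in gene counts.

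Among 11 E2F and pocket protein genes, 1 was higher and 6 were lower with the empty vector (median −0.59), and 2 were higher and 9 lower with TRF2. Over all tested genes the shares were 32.7% higher and 31.9% lower with the empty vector, and 28.2% and 30.1% with TRF2. The 2 higher with TRF2 were RBL2 and E2F4. Their calls were lost in 5 and 4, respectively, of the 6 fits that left out 1 compared library. With TRF2 and the offsets, E2F4 (−0.06), RB1 (−0.195) and E2F5 (−0.38) did not pass, while RBL2 did (0.61). The largest decreases with the empty vector were those of E2F2 (−3.21 ± 0.53), E2F8 (−3.07 ± 0.41), RBL1 (−2.13 ± 0.15) and RB1 (−1.02 ± 0.18), and E2F4, a repressor with pocket proteins, was the higher one (0.48 ± 0.1, 0.31 without the third senescent replicate, and −0.11, not called, with the offsets). E2F2 and E2F8 lay near the floor in senescent empty-vector cells, with means of 0.20 and 0.34 CPM and at most 11 and 16 reads. E2F1 was not called with the empty vector (−0.09, edgeR adjusted p = 0.671) but was at −0.82 with the offsets (edgeR adjusted p = 4.96e-06), and RB1 was then at −0.44. With siLMNB1, 1 was higher and 3 were lower, among them E2F3 (−1.68 ± 0.12, edgeR adjusted p = 5.71e-08), where 16.4% of all tested genes were higher and 16.1% lower.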

How the data were processed

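RNA-seq counts of 15 MRC-5 libraries were analysed. Per the labels and the methods, the authors used Trimmomatic and then STAR on GRCh38, and deposited unnormalized read counts per gene. The annotation release and strand are not given in the sources used here. Groups came from the labels, and the PDs of the senescent cells from the study's methods. Genes were named with GENCODE 44, from which 324 identifiers are absent. Counts were TMM-normalized, filtered with filterByExpr and fitted with edgeR 4.0.16 (R 4.3.3) in one quasi-likelihood model with a mean per condition. Calls are Benjamini-Hochberg adjusted p-values under 0.05 over 15799 genes, and 95% intervals come from the SE. Offsets were loess curves on GC content and length per library (span 0.3, prior count 2). Alternatives were median-ratio factors, DESeq2 1.42.0, no filter, fits of the compared libraries alone, the offsets, a replicate block, fold change thresholds and each library left out. The fit was tested on simulated data. Ratios and figures used Python 3.11.15 with scipy 1.17.1. The members and lists were chosen with earlier results of these data known. Named genes were all members, LMNB1, TERF2, CDKN2A, CDKN2B, per list up to 4 called genes in each direction with the largest change in senescent cells with the empty vector, the 3 nearest genes of EZH2 and EZH1, and genes of lists whose count was 5 or fewer. Genes singled out beyond that rule (E2F1, E2F3, E2F5, CBX2, and RNF2 and SCML2 with siLMNB1) were chosen after their values were seen. Some genes that the rule names are not reported here. Replicate numbers did not pair libraries. Among the members, library depth limits EZH2 most, at 69 reads in its lowest libraries.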

Additional observations from a re-analysis of the deposited data

Results flagged for a closer look

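Among all genes of the lists, 3 genes of dividing cells had a senescence effect that differed with TRF2 by edgeR's interaction test. The effect with TRF2 minus that with the empty vector was −0.79 for TOP2A, −0.80 for BUB1 and −1.0 for CDK1, on the log2 scale. EZH2 had −0.43 in the same test and was not called (edgeR adjusted p = 0.33).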

How the results depend on the processing

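The 8 members other than EED and EZH1 kept their direction and their call in both senescence comparisons under every alternative run other than the fold change thresholds, and so did EZH1 except without 1 young TRF2 library in the TRF2 comparison (0.27). The fold change thresholds left 4 members called with the empty vector, 2 with TRF2 and 1 with siLMNB1, and together with the offsets, a combination chosen after the data were seen, 2, 1 and 1. In fits of only the libraries compared, 1 member was called with TRF2 in young and 0 in senescent cells. Of all genes in these fits, 2.06% were higher and 1.24% lower in young cells, and 0.0137% and 0% in senescent cells. DESeq2 called 2 members with TRF2 in senescent cells and 1 for the interaction, which was also 1 with no filter on low counts. Of all genes DESeq2 tested, 7.01% were higher and 8.86% lower in senescent cells, and 1.1% and 2.78% for the interaction. With no filter, the interaction shares were 1.03% and 1.98%. Leaving out libraries 1 at a time gave 1 to 2 members with TRF2 in senescent cells and 0 to 2 for the interaction, with 2 in each without the first senescent library with the empty vector. Without that library the shares of all genes rose too. With TRF2 in senescent cells 13.7% were higher and 13.4% lower, and for the interaction 6.08% and 6.76%. With the GC and length offsets, EED turned to 0.30 with the empty vector and 0.0891 with TRF2, and EZH1 to −0.0258 with siLMNB1. EZH1 and EED were not called with siLMNB1 in any fit. With libraries left out EZH1 ranged from −0.00546 to 0.0976 there and EED from −0.0599 to 0.0546, and EED was −0.00966 with median-ratio factors and −0.0107 with DESeq2. The causes were not tested.

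Replicate numbers did not pair the libraries: same-numbered libraries of different conditions had deviations correlated at −0.11 to 0.22 (30 pairs, 2 over 0.1). With the replicate block, 10 members were called in each senescence comparison, 4 with siLMNB1, 0 and 1 with TRF2 in young and senescent cells and 0 for the interaction, the same counts as without it. The ratio of EZH2 to EZH1 between senescent and young cells was −3.35 to −3.25 with libraries left out. Counts of 3 libraries per condition limit small differences, and members not called under any alternative with TRF2 (9 in young and 7 in senescent cells) changed sign in some, for 4 and 5 of them.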
